A study of Saccharomyces cerevisiae with 2 samples.

Results

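The 10 genes of fatty acid synthesis, desaturation and elongation described here were taken by name from the 6207 gene features of a yeast expression array: FAS1, FAS2 and ACC1 for synthesis, OLE1 for desaturation, ELO1, ELO2 and ELO3 for elongation, and FAA1, FAA4 and ACB1 for activation and transport. All 10 were on the array and carried their systematic names (YKL182W, YPL231W, YNR016C, YGL055W, YJL196C, YCR034W, YLR372W, YOR317W, YMR246W and YGR037C). They were chosen by pathway and name with the mean log2 ratios of these arrays in view, the strongly negative one of FAS2 among them. Their values are therefore given as a description, with no test. RNA came from a mid2 mutant of Saccharomyces cerevisiae whose background, BY4741, is a laboratory haploid of mating type a with deletions in several biosynthetic marker genes. Mid2 is a sensor in the plasma membrane that reports damage of the cell wall. The mutant was grown in rich medium (YEPD) at 24 °C, and part of the culture received 30 µg/ml Congo Red, a dye that binds wall polymers, with cells collected at 4 h. RNA from Congo Red cells and from untreated cells was hybridised to the same array with different dyes, and the dyes were swapped between the arrays. Both RNAs of each array came from the mutant. Wild-type arrays were not analysed here, and the values cannot be compared with cells that have Mid2. The kind of mutation in MID2 is not given in the sources used here.

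In budding yeast, acetyl-CoA carboxylase makes malonyl-CoA, which a large fatty acid synthase complex of an alpha and a beta subunit uses to build saturated chains. A single desaturase in the endoplasmic reticulum turns these into monounsaturated chains, which yeast cannot grow without. Elongases in the same membrane extend chains to the very long ones found in sphingolipids, and acyl-CoA synthetases and an acyl-CoA binding protein activate and carry the chains. The activators Ino2 and Ino4 are known to act on both synthase genes and on genes of phospholipid synthesis.

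Each array gave 1 deposited log2 ratio per feature, and the single group held 2 arrays, on which RNA of Congo Red cells carried Cy3 (array 1) or Cy5 (array 2). A value was present for 2832 features on array 1 and 3440 on array 2, and 2738 features (44.1%) had both. No intensities were at hand, so the signal behind a ratio is unknown and the number of arrays limits the precision. The labels describe a plan of 4 arrays for a condition, and 2 were analysed here. Nothing in the labels says whether both arrays hold separate cultures, so the SD over arrays may be technical. The labels do not settle the direction of the ratios. The columns correlated positively over the 2738 features (Pearson r = 0.48, Spearman rho = 0.34, across genes of shared arrays) although the dyes were swapped, and a positive ratio is read here as higher with Congo Red. If the columns held untreated over treated, every sign below would turn. If they held a fixed order of dyes, the treatment would lie in the difference between arrays, and those values stand near the end. The median mean ratio of all features was -0.24, so a gene near -0.24 lies at the middle of all genes and not below it. Among markers of the labelled mating type, MFA1 (-0.43 on array 1 and -0.82 on array 2), MFA2 (-0.68 and -0.98), AGA2 (-0.67 and -0.58) and STE2 (2.02 and -0.12) had both values. A ratio gives no level, so the mating type could not be checked.

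FAS2, OLE1 and ELO3 stood far out among the fatty acid genes, and not on the same side. FAS2 was lower with Congo Red by the reading above, and OLE1 and ELO3 were higher. Of the 9 members with both values, 1 negative and 2 positive ones passed a rule of size: the mean had to reach 2-fold, and each array had to show 1.5-fold or more with an equal sign. Over all 2738 features the rule took 6.94%, of which the 77 negative features made up 2.81% and the 113 positive ones 4.13%. Since the members were chosen with these ratios known, nothing is read from that contrast of shares. At a threshold of 0.05 on the Benjamini-Hochberg adjusted p, limma's moderated test called 0 features (0%) of the 2738 and the smallest adjusted p was 0.123. Unadjusted, 371 (13.6%) had a p under 0.05. No member was thus called.

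**Figure D1:**
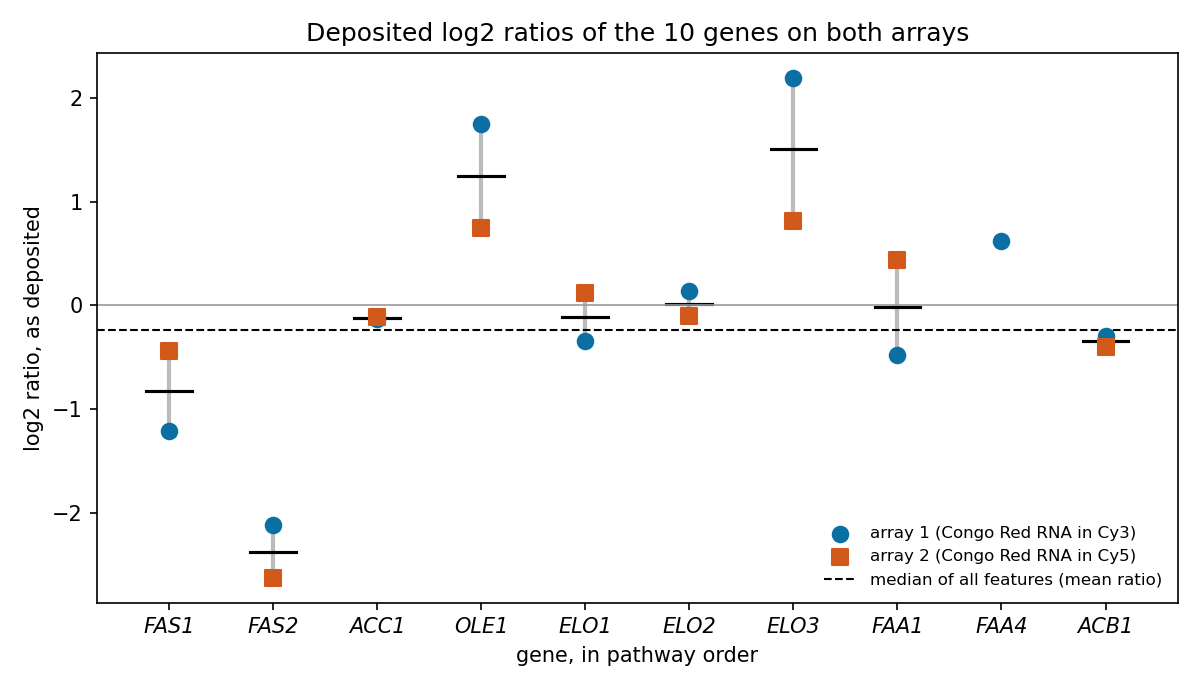
Deposited log2 ratio (vertical axis) of the 10 genes in pathway order (horizontal axis). Circles are array 1, squares array 2, short black lines the mean of both, grey lines join the arrays, and the dashed line is the median of all features at -0.24. FAS2 lies below -2 on both arrays and OLE1 and ELO3 lie above 0.7 on both, while FAA4 has a circle only.

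The synthesis genes did not share a value. FAS2, the gene of the alpha subunit of fatty acid synthase, which holds the acyl carrier domain and the ketoacyl synthase, had log2 ratios of -2.12 on array 1 and -2.62 on array 2. As linear ratios these are 0.230 and 0.162. Both arrays thus put FAS2 well below the other members, and they differed by 0.50, close to the median difference of 0.43 between the arrays over all features. Its mean was -2.37 ± 0.36 (SD, n = 2), a mean fold of 5.18, and ranked 15 from the lowest of 2738 features. On array 2 it ranked 5 from the lowest and on array 1 it ranked 60.

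FAS1, the gene of the beta subunit, with which the alpha subunit forms the complex, had -1.21 on array 1 and -0.44 on array 2. Its mean of -0.82 ± 0.54 (SD, n = 2) was on the side of FAS2 and did not reach the limits of size. FAS1 stood at the 9.2 percentile of all features on array 1 and at the 21.2 percentile on array 2. FAS1 lay above FAS2 by 0.92 on array 1 and by 2.18 on array 2, a mean difference of 1.55 ± 0.90 (SD, n = 2). The genes of these partner subunits thus had unequal ratios on each array, in the same order.

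ACC1, encoding the acetyl-CoA carboxylase that supplies malonyl-CoA, had -0.14 on array 1 and -0.11 on array 2, a mean of -0.12 ± 0.02 (SD, n = 2). The arrays were closer for ACC1 than for any other member. On each array the value lay slightly higher than the median feature (by 0.13 and 0.07), so its sign depends on centring and turned to 0.10 when each array was centred on its median. ACC1 lay above FAS2 by 1.99 on array 1 and by 2.51 on array 2. FAS1 minus ACC1 was -1.07 on array 1 and -0.33 on array 2. The order from the highest to the lowest ratio was thus ACC1, FAS1 and FAS2 on both arrays.

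OLE1 encodes the delta-9 desaturase, the only enzyme of yeast that makes monounsaturated fatty acids. Its log2 ratio was 1.75 on array 1 and 0.74 on array 2, or 3.35 and 1.67 as linear ratios. Both were positive, and array 1 was higher by 1.00. The mean was 1.24 ± 0.71 (SD, n = 2), rank 112 from the highest of 2738. OLE1 lay at the 96.4 percentile of array 1 and at the 93.9 percentile of array 2, so its place among all features was near the same on both although the values were not.

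ELO3, the elongase gene needed for the longest chains of sphingolipids, had the highest ratio of the 10 genes, with 2.19 on array 1 and 0.82 on array 2. As linear ratios these are 4.57 and 1.76, so the size differed between arrays by more than for any other member with both values (1.37 on the log2 scale). The mean was 1.504 ± 0.97 (SD, n = 2), rank 78 from the highest. OLE1 lay below ELO3 by no more than the spread between arrays in either gene, with OLE1 minus ELO3 at -0.45 on array 1 and -0.07 on array 2.

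The other elongase genes did not follow ELO3. ELO2, whose product lengthens long chains for sphingolipids, had 0.14 on array 1 and -0.11 on array 2, a mean of 0.02 ± 0.17 (SD, n = 2). ELO1, whose product lengthens medium chains, had -0.34 on array 1 and 0.12 on array 2, a mean of -0.11 ± 0.33 (SD, n = 2). Both had opposite signs on the arrays, and both means lay within their spread of 0. ELO3 exceeded ELO2 by 2.05 on array 1 and 0.92 on array 2 (mean 1.49 ± 0.80, SD, n = 2). It exceeded ELO1 by 2.53 and 0.70 (mean 1.62 ± 1.30, SD, n = 2). ELO2 minus ELO1 was 0.48 on array 1 and -0.23 on array 2, so the order of these genes was not the same on both arrays. The 3 elongase genes are homologous, and hybridisation of one transcript to another's feature was not tested.

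The genes for activating and carrying fatty acids had small or split ratios. FAA1, which encodes the main long-chain acyl-CoA synthetase, stood at -0.47 on array 1 and at 0.43 on array 2, with a mean of -0.02 ± 0.64 (SD, n = 2). FAA4, its close relative with overlapping function, had 0.62 on array 1 and no value on array 2. On array 1, where both were measured, FAA1 minus FAA4 was -1.09, a single difference with no replicate. ACB1, encoding the acyl-CoA binding protein, had -0.29 and -0.40, a mean of -0.34 ± 0.08 (SD, n = 2). ACB1 was negative on both arrays, and relative to the median of the array it stood at -0.03 on array 1 and -0.21 on array 2.

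**Figure D2:**
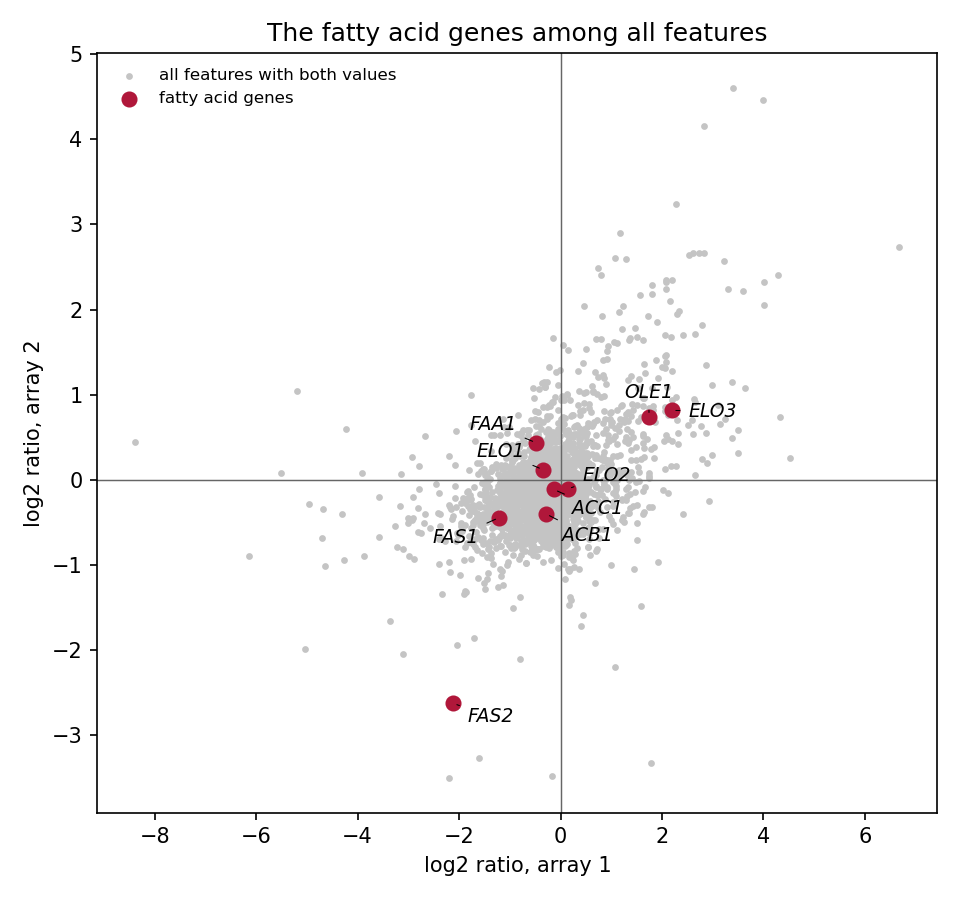
Log2 ratio on array 2 (vertical axis) against that on array 1 (horizontal axis) for the 2738 features with both values (grey) and the 9 fatty acid genes among them (red, named). FAS2 lies at the lower left, OLE1 and ELO3 together at the upper right, and the other 6 genes lie within or near the cloud of all features.

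Over the 9 members with both values the median mean ratio was -0.11, beside -0.24 for all features, and the means ran from -2.37 to 1.504. On both arrays 4 members (ACC1, OLE1, ELO2 and ELO3) exceeded the median of all features, against 29.3% of all features. Below it on both lay 3 (FAS1, FAS2 and ACB1), again against 29.3% of all features, and ELO1 and FAA1 were on different sides. The far members thus lay on both sides of the middle. The median difference between arrays was 0.50 for the members and 0.43 for all features. In 7 of the 9 members the ratio was further from 0 on array 1, as for 1765 of the 2738 features. Array 1 had the wider spread over all features (SD 0.96 against 0.57).

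The features closest to FAS2 over both arrays were found by Euclidean distance among those matched to the gene table. They were GYP5 (-2.04 and -1.94, distance 0.68), FHL1 (-1.70 and -1.85, distance 0.88) and YGL193C (-2.20 and -3.50, distance 0.88). Likeness over 2 arrays is weak, and it is given as a description. The nearest genes on each side of a member, among those on the array in the order of assembly R64, were looked at after the data had been seen. They had values on both arrays in 11 of 20 cases. Their means ran from -1.26 to 0.53, and 1 passed the limits of size. This was USV1, a stress-related transcription factor gene next to FAS2, with -1.43 on array 1 and -1.09 on array 2. SSO1, a secretion gene on the other side of FAS2, had -0.90 on array 2 only. Next to FAS1, PRS1 had -2.09 on array 1 and -0.07 on array 2, a mean of -1.08, and missed the limits on array 2. LOT5, on the other side of FAS1, had no value. Neither the neighbour of OLE1 with both values, ERV14 (-0.07 and -0.66), nor that of ELO3, VID22 (-0.45 and 0.29), was positive on both arrays as these members were.

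Around these enzymes, 69 other genes of lipid metabolism in 9 lists were examined, of which 22 had both values, 8 had a value on 1 array and 38 had none, while PIS1 of the phospholipid list was not analysed here. Limma called 0 of the 22 over all features, and the limits of size took 1 positive and 1 negative gene (9.1% of the 22, beside 6.94% of all features). Their median mean ratio was -0.06, beside -0.24 for all features. On both arrays 9 of the 22 exceeded the median of all features, and 6 lay below it, each beside 29.3% of all features. Both values were thus present in 22 of these 69 genes and in 9 of the 10 members, beside 44.1% of all features. Since the members were chosen with their ratios in view, nothing is read from this. FAA2, FAA3 and FAT1, the other genes of fatty acid activation and uptake, had none on either array, nor had HFA1, the mitochondrial counterpart of ACC1.

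**Figure D3:**
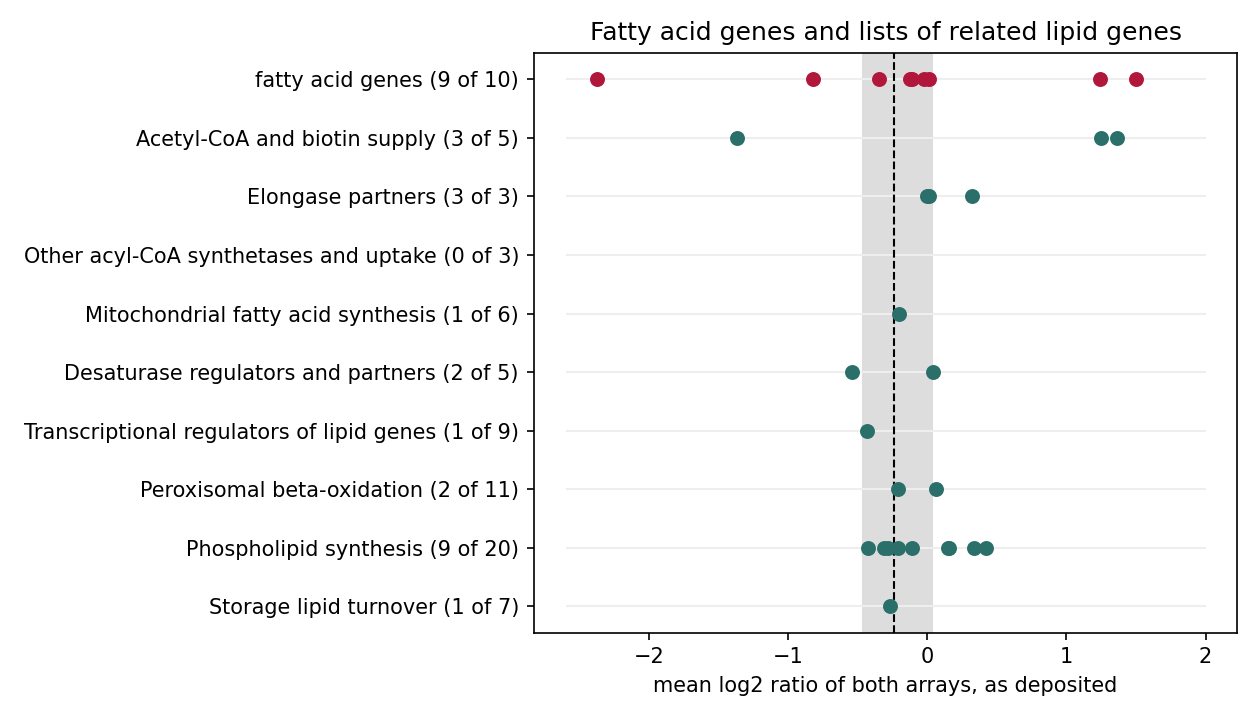
Mean log2 ratio of both arrays (horizontal axis) for the fatty acid genes (red) and the genes of 9 lists of related lipid genes (green), 1 point a gene, with the number of genes with both values of those listed. The dashed line is the median of all features at -0.24 and the grey band their middle 50%. The fatty acid genes run from -2.37 to 1.504, and the widest of the other lists, acetyl-CoA and biotin supply, runs from -1.37 to 1.37.

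In the list of acetyl-CoA and biotin supply, which also holds PPT2 of the mitochondrial route, 2 of the 3 genes with both values were positive on both arrays and 1 was negative on both. ACS2 encodes the acetyl-CoA synthetase used on glucose. It stood at 2.04 on array 1 and at 0.46 on array 2, where it missed the limit. BPL1, whose product attaches biotin to acetyl-CoA carboxylase, had 0.81 and 1.92, a mean of 1.37 ± 0.78 (SD, n = 2), and was the positive gene past the limits. PPT2, whose product attaches the phosphopantetheine group to the mitochondrial acyl carrier protein, had -1.52 and -1.21, a mean of -1.37 ± 0.22 (SD, n = 2), and was the negative one. The remaining genes of this list, ACS1 and HFA1, had no value.

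The elongases act with a first reductase, a dehydratase and a second reductase, and all 3 of these partner genes were measured on both arrays. IFA38, the first reductase gene, was highest with 0.87 on array 1 and -0.23 on array 2. TSC13, the last reductase gene, was lowest with 0.09 and -0.09, and PHS1, the dehydratase gene, stood close to it with -0.29 and 0.31. Each of the 3 had opposite signs on the arrays, and the highest mean among them was 0.32. Among partners and regulators of the desaturase, CYB5, the cytochrome gene that can pass electrons to lipid enzymes, had -0.44 and -0.65 and RSP5, the ubiquitin ligase gene for processing the desaturase activators, had -0.05 and 0.13. MGA2 and SPT23, which encode those activators of OLE1, had no value on either array.

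Of the 9 transcriptional regulators of lipid genes, REB1, a general regulatory factor gene, alone had both values, -0.62 on array 1 and -0.25 on array 2. INO4 had -1.61 on array 2 only, while INO2 and the repressor gene OPI1 had none. The phospholipid synthesis genes, many of them targets of Ino2 and Ino4, had both values in 9 of 20 cases. Their median mean ratio was -0.11, and the means ran from -0.42 to 0.42. CHO2, of phosphatidylcholine synthesis, was highest with 0.37 and 0.48, a mean of 0.42 ± 0.08 (SD, n = 2). OPI3, of the same route, was lowest with -0.51 and -0.34, a mean of -0.42 ± 0.12 (SD, n = 2). INO1, the inositol synthesis gene often used as a reporter of Ino2 and Ino4, had -0.44 and -0.12. None of the 9 reached the limits of size in either direction. On array 2 only, PCT1, of phosphatidylcholine synthesis, had -1.91, and EKI1, an ethanolamine kinase gene, had -0.45.

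Of 11 genes of peroxisomal beta-oxidation, the fatty acid breakdown route of yeast, 2 had both values. CTA1, the peroxisomal catalase gene, had 0.31 on array 1 and -0.18 on array 2, and TES1, a peroxisomal thioesterase gene, had -0.85 and 0.42. PXA2, a subunit gene of the peroxisomal fatty acid transporter, had -3.11 on array 1 only, further from 0 than any fatty acid gene on that array. ECI1, an isomerase gene of the route, had -0.30 on array 2 only. Of 6 genes of mitochondrial fatty acid synthesis, ACP1, the acyl carrier protein gene, had both values, -0.34 and -0.06, while CEM1 had -0.16 and ETR1 -0.57 on array 2 only. Of 7 genes of storage lipid turnover, TGL4, a triacylglycerol lipase gene, had both values, -0.27 and -0.27, and DGA1, a triacylglycerol synthesis gene, had -0.51 on array 2 only. The single-array values of these lists are all given, and they were named after being seen.

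Were the ratios never turned, that is Cy5 over Cy3 on both arrays, the treatment would be read from array 2 minus array 1, divided by 2. FAS2 would then stand at -0.25, FAS1 at 0.38, OLE1 at -0.50 and ELO3 at -0.69, and no member would reach the limits of size. OLE1 and ELO3, on the positive side as deposited, would be on the negative side, and FAS1 on the positive side. FAS2 kept its negative sign by that reading, at a smaller size, and its equal signs on the arrays would then be read as a dye difference. FAA1 would be furthest on the positive side, at 0.45. With the opposite fixed order, Cy3 over Cy5 on both arrays, each of these signs would turn, that of FAS2 included. The labels do not settle which order would hold. Centring, scaling and quantile normalization left FAS2 between -2.68 and -2.15, OLE1 between 1.21 and 1.47 and ELO3 between 1.495 and 1.73, and these 3 genes were the members past the limits of size under each of them.

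**Figure D4:**
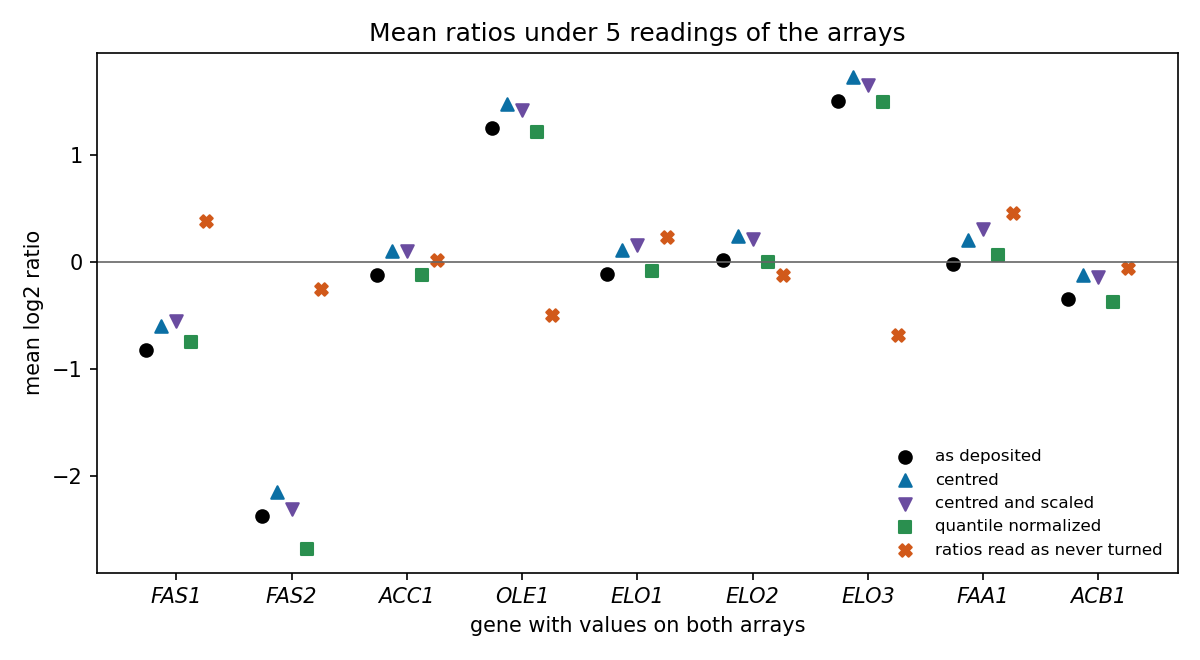
Mean log2 ratio (vertical axis) of the 9 genes with both values (horizontal axis) under 5 readings: as deposited, centred, centred and scaled, quantile normalized, and read as ratios that were never turned (crosses). The first 4 markers share a sign in FAS1, FAS2, OLE1, ELO3 and ACB1 and lie on both sides of 0 in the other genes. Against the deposited means, only the crosses of FAS2 and ACB1 keep their sign. Those of all other genes lie on the other side of 0, among them OLE1 (-0.50), ELO3 (-0.69) and FAS1 (0.38).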

How the data were processed

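The deposited table holds 1 log2 ratio per feature and array, and the labels give the dyes. The log2 scale was found from the values, since all 2832 and 3440 of them turn into linear ratios of 4 decimals (relative tolerance 3e-09). The sources used here do not say which channel is the numerator of the ratio, and they do not give scanner, normalization or filter. Both control features were omitted. Ratios were used without further centring. Names came from the gene table of assembly R64, which matched 5654 of 6207 features.

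The members, lists, rule of size and tests were chosen with earlier results of these data known. The 10 members were all named, with the highest and lowest mean of each list, every list gene past the limits of size, and the 3 features nearest to FAS2. List genes with a value on 1 array, and other list genes named, were chosen after seeing them. The mean ratio was tested against 0 over all 2738 features by limma 3.58.1 (lmFit, eBayes) under R 4.3.3. The test was two-sided and adjusted after Benjamini-Hochberg. On simulated data with known changes, the estimate of the mean ratio was checked. How many such changes the test calls with so few arrays is not reported here. Alternatives were centring, scaling, quantile normalization, ratios never turned, other fold limits, robust eBayes, features with close arrays, and each array left out. Promoter and protein sequences were not used here, so planned motif and identity counts were not run. Plots used matplotlib 3.10.9 and Python 3.11.15.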

Additional observations from a re-analysis of the deposited data

How the results depend on the processing

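Centring each array turned the member median of -0.11 to 0.11, ACC1 to 0.10, ELO1 to 0.11, FAA1 to 0.20, the phospholipid median to 0.11 and the median of all 9 lists to 0.17. Scaling turned them to 0.16, 0.10, 0.16, 0.31, 0.069 and 0.17, since the median of all features was -0.24. Quantile normalization turned ELO2 to -0.00089 and FAA1 to 0.064. With the ratios read as never turned, FAS1 was 0.38, ACC1 0.012, OLE1 -0.50, ELO1 0.23, ELO2 -0.12, ELO3 -0.69, FAA1 0.45, the phospholipid median 0.056 and that of all lists 0.069. FAS1 minus ACC1 was then 0.37, ELO3 minus ELO2 -0.56, ELO3 minus ELO1 -0.92, ELO2 minus ELO1 -0.35 and OLE1 minus ELO3 0.19. That reading took 0 members and 11 features past the limits of size, and limma called 3 features. With the arrays centred as well, limma called 0 features, and 8 positive and 8 negative features passed the limits. On single arrays the member median ran from -0.29 to -0.11, the phospholipid median from -0.089 to -0.033, that of all lists from -0.16 to -0.091, ELO1 from -0.34 to 0.12, ELO2 from -0.11 to 0.14, FAA1 from -0.47 to 0.43 and ELO2 minus ELO1 from -0.23 to 0.48. Limits of 3-fold and 2-fold took 1 member and 65 of the 190 features, and a looser pair of limits, with 1.5-fold for the mean, took 4 and 521. Of the 190, 113 (59.5%) were positive, against 162 of 197 (82.2%) after centring, 169 of 211 (80.1%) after scaling and 4 of 11 (36.4%) with the ratios read as never turned. Limma called 62 of the 2652 features that differed by at most 2 between arrays, a filter that removes wide spreads, and gave 371 at an unadjusted p under 0.05. Each ratio already pairs Congo Red RNA with untreated RNA on 1 array, so no further pairing was modelled. Without the 3 members past the limits of size, a choice made after the data had been seen, the member median was -0.12. The medians of lists were followed over these alternatives only where at least 5 genes were measured. Signal over background was unknown.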
